A study of Vaccinium corymbosum with 9 samples.

Results

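Proanthocyanidins, the condensed tannins of plants, are chains of flavan-3-ols, and a pair of reductases makes these units from intermediates of the anthocyanin route. Leucoanthocyanidin reductase (LAR) turns leucoanthocyanidin into catechin, and anthocyanidin reductase (ANR) turns anthocyanidin into epicatechin. Both draw on substrates that anthocyanidin synthase (ANS) and the glucosyltransferases would otherwise carry on to the red and blue pigments. In many fruits tannins are laid down in the young fruit and in the seed coat and give astringency.

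The genes described here are those that the deposited table assigns to the KEGG ortholog K13081 (LAR) or K08695 (ANR), 11 and 10 genes, or 21 of 93716 in all. They were followed in Vaccinium corymbosum 'Bluecrop', a highbush blueberry, in orchard fruit picked without any treatment when early green, at color break and when mature. Each stage has 3 libraries, which the study's design text calls independent biological replicates, and each library held 52919289 to 67604266 estimated counts. The study asked how the wax bloom of the fruit forms. Only genes with an FPKM (fragments scaled to transcript length and library depth) of 1 or more in 3 or more of the 9 libraries entered the test, and 4 LAR and 4 K08695 genes passed. The other 7 LAR genes stayed at or below 0.955 FPKM in every library, and the other 6 K08695 genes at or below 0.827 FPKM. A gene is said below to rise or fall where edgeR gave an adjusted p under 0.05 over all 48073 tested genes and the log2 change was 1 or more in size. Positions are the deposited table's scaffold coordinates, for which no source used here names a build. Ground fruit was sampled, so fewer cells of a type and less RNA per cell cannot be told apart. Across genes, color break replicate 3 correlated with the other color break libraries at 0.971 and 0.972, where replicates 1 and 2 correlated at 0.987 with each other. With the mature libraries replicate 3 correlated at 0.969 to 0.971, and replicates 1 and 2 at 0.969 to 0.978. With the green libraries replicate 3 correlated at 0.845 to 0.849, and replicates 1 and 2 at 0.818 to 0.826. Results that rest on color break replicate 3 are given with and without it.

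The annotation of both families was checked first. All 11 K13081 genes carry the GO term for LAR activity, and also one for lignan synthesis. Only 4 of the 10 K08695 genes carry the term for ANR activity, and none of these 4 passed the expression filter. The 4 tested K08695 genes carry other terms: a pair on scaffold 12 carries cinnamoyl-CoA reductase activity, an enzyme of lignin synthesis, and the genes on scaffolds 22 and 34 carry, of the terms looked up, a general oxidoreductase term and, on scaffold 22, one for defense response. They are therefore called K08695 genes below, not ANR genes. In addition, 3 genes carry 1 of the 2 terms without either ortholog, 1 for LAR on scaffold 4 and 2 for ANR on scaffolds 6 and 787.

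**Figure D1:**
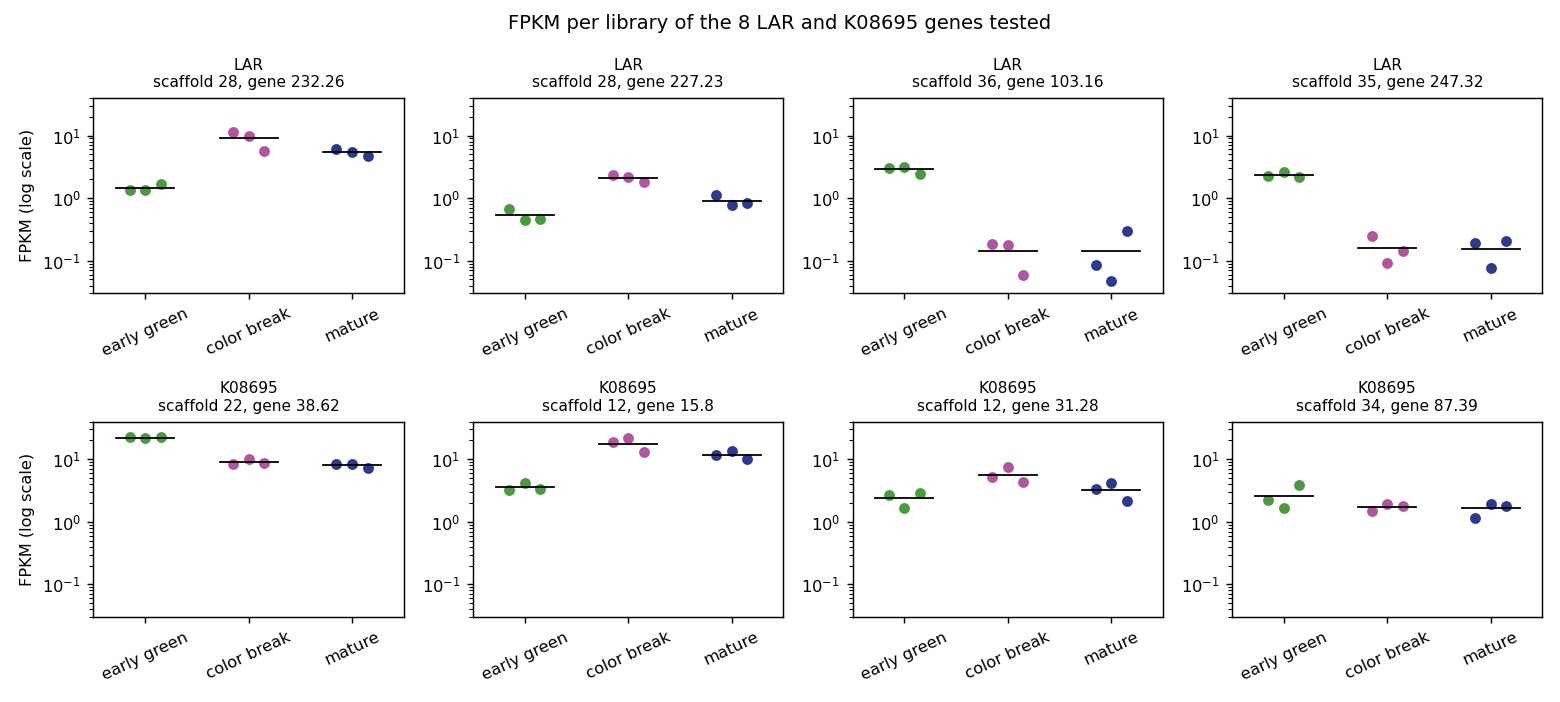
FPKM on a log axis in each library (points) at the 3 stages for the 4 LAR and 4 K08695 genes tested, with the stage mean as a bar (n = 3). The LAR genes on scaffold 28 were higher at color break than in green fruit, those on scaffolds 35 and 36 were below 0.3 FPKM in every later library, and the K08695 genes on scaffolds 12 and 22 moved in opposite directions.

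The LAR genes went in opposite directions as the berry colored. Between early green and color break 2 of the 4 tested LAR genes rose and 2 fell, and the same split was found between green and mature fruit. The split depends on how genes are chosen. Of LAR and ANR genes chosen by protein description 2 were tested, and at color break 2 rose and 0 fell. Of those chosen by GO term, a choice made after the data were seen, 6 were tested, and 2 rose and 3 fell. Over all tested genes 22.8% were called for color break against green (8.89% higher and 13.9% lower) and 24.6% for mature against green (9.49% higher and 15.1% lower). The F test over the 3 stages called 7 of the 8 tested genes of both families, beside 59.0% of all tested genes. The genes on scaffolds 35 and 36 passed the filter through the green libraries alone, so a gene of that kind had to be lower later, and their count is no support for a trend. Among the rising genes, VaccDscaff28-augustus-gene-227.23 passed the filter through color break and mature libraries alone, so its rise at color break is no support either. The rising and the falling course were known when the genes were chosen, so the contrast between them is a description.

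The main LAR gene of colored fruit was VaccDscaff28-augustus-gene-232.26 (scaffold 28, 23199953 to 23205461, minus strand, 5 exons), whose nearest named protein is LAR of Vaccinium ashei. Its level was 1.34, 1.33 and 1.66 FPKM in green replicates 1 to 3, 11.6, 9.92 and 5.72 FPKM at color break, and 6.02, 5.56 and 4.64 FPKM in mature fruit. Every later library lay above every green library, and color break replicate 3 lay within the mature range. The gene rose from green to color break (log2 change 2.92 ± 0.26 (SE), edgeR adjusted p = 1.2e-05) and was higher in mature than in green fruit (2.16 ± 0.25, adjusted p = 7.2e-05). From color break to mature its log2 change was -0.76 ± 0.24 (adjusted p = 0.094), and without color break replicate 3 it was -1.01 (adjusted p = 0.0049), which was called.

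A second LAR gene on the same scaffold followed the same course at a lower level. VaccDscaff28-augustus-gene-227.23 (scaffold 28, 22770207 to 22776532, plus strand, 5 exons) lies 423421 bases away and is also nearest to LAR of V. ashei. It had 0.682, 0.455 and 0.472 FPKM in green, 2.32, 2.15 and 1.81 FPKM at color break, and 1.12, 0.789 and 0.826 FPKM in mature libraries. The 3 stages did not overlap, with color break above mature and mature above green. A level of 1 FPKM was reached in 3 color break libraries, 1 mature library and 0 green ones. Having passed the filter through later libraries alone, the gene had to be higher at color break than in green fruit. The gene rose at color break (2.22 ± 0.24, edgeR adjusted p = 3.8e-05) and fell from there to maturity (-1.21 ± 0.23, adjusted p = 0.018). It was the only LAR or K08695 gene of the 8 tested that was called in that last step, in which 1.37% of all tested genes were called (0.763% higher and 0.612% lower). Leaving out color break replicate 1, color break replicate 2, mature replicate 2 or mature replicate 3 ended that call (edgeR adjusted p = 0.051 to 0.065), as did limma on log2(FPKM + 1), with a change of -0.70. Its change from green to mature (1.01 ± 0.24, adjusted p = 0.0051) lay at the fold threshold and was 0.73 with library-size-only scaling, 0.31 and 0.67 in limma, and 0.84 to 0.93 without green replicate 2, green replicate 3 or mature replicate 1.

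The LAR genes of green fruit were a different pair. VaccDscaff36-augustus-gene-103.16 (scaffold 36, 10312289 to 10319710, minus strand, 6 exons) had 3.09, 3.15 and 2.43 FPKM in green fruit, 0.186, 0.176 and 0.0598 FPKM at color break, and 0.0850, 0.0467 and 0.299 FPKM in mature fruit. These levels rest on 219 to 294 estimated counts a green library and 5 to 28 in the later ones, so the later level is poorly determined. Every later library lay far below the lowest green one. The gene fell at color break (log2 change -4.05 ± 0.59, edgeR adjusted p = 3.1e-04), and from color break to mature its log2 change was 0.025 ± 0.63 (adjusted p = 0.99).

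VaccDscaff35-augustus-gene-247.32 (scaffold 35, 24723101 to 24731389, plus strand, 7 exons) had 2.22, 2.58 and 2.16 FPKM in green fruit, 0.250, 0.0924 and 0.141 FPKM at color break, and 0.191, 0.0754 and 0.203 FPKM in mature fruit. Green libraries stood apart from all others, while color break and mature libraries overlapped. It fell at color break (-3.55 ± 0.41, edgeR adjusted p = 5.4e-05) and was lower in mature than in green fruit (-3.60 ± 0.41, adjusted p = 4.8e-05). Both falling genes share the same nearest protein, the V. darrowii protein Vadar_023104, which the table names hypothetical.

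The same nearest protein marks 2 further genes, on scaffolds 4 and 9. VaccDscaff9-augustus-gene-315.13 (K13081) missed the filter with 0.431, 0.496 and 0.297 FPKM in green fruit. It had no counts at color break, a level at least 14.2-fold lower against a floor of 3 counts per library, and 1 mature library of 3 held counts (0.0633 FPKM). VaccDscaff4-augustus-gene-340.14 (scaffold 4, 33994238 to 34001001, 5 exons) has the LAR GO term but no ortholog. It had 5.06, 4.12 and 4.42 FPKM in green fruit, 0.345, 0.136 and 0.554 FPKM at color break, and 0.385, 0.445 and 0.941 FPKM in mature fruit. That was the highest level of any single gene with the LAR term in green fruit, and it fell at color break (-3.43 ± 0.49, edgeR adjusted p = 3.8e-04). Like the genes on scaffolds 35 and 36, it passed the filter through green libraries alone, so it had to be lower later. Of the 8 tested genes of both families, 7 did not overlap between green and color break (66.0% of all tested genes in either direction), 3 between color break and mature (26.4% of all tested genes) and 6 between green and mature (68.8%).

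The remaining LAR genes were near the limit of detection. The 3 genes nearest to LAR of V. corymbosum, on scaffolds 2, 14 and 25, summed to 0.725 ± 0.042 FPKM (SD, n = 3) in green, 0.106 ± 0.087 at color break and 0.310 ± 0.272 in mature fruit. VaccDscaff20-augustus-gene-119.25, nearest to V. ashei LAR, had 0.287 to 0.955 FPKM at color break and 0.303 to 0.631 FPKM in green fruit, so these stages overlapped. VaccDscaff19-augustus-gene-121.20 and VaccDscaff3-augustus-gene-115.16 did not pass 0.335 and 0.133 FPKM in any library.

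The family therefore changed in makeup more than in level. Summed over its 11 genes, LAR stood at 8.92, 9.52 and 8.13 FPKM in green libraries, 15.5, 13.2 and 8.07 FPKM at color break, and 7.92, 6.83 and 7.02 FPKM in mature fruit. Color break replicate 3 lay below the lowest green library, so green and color break overlapped. The log2 ratio of the stage means was 0.47 with that library and 0.70 without it. The 3 Vadar_023104 genes made up 63.3% ± 2.84 (SD, n = 3) of the summed LAR level in green fruit, and their share was 2.45% ± 0.389 at color break. The 4 V. ashei genes made up 27.6% ± 2.16 in green fruit, 96.7% ± 0.264 at color break and 91.0% ± 6.27 in mature fruit, and color break replicate 3, at 96.9%, matched the others in this share. With the gene on scaffold 4 counted, the summed level of all 12 genes with the LAR term was 13.4 ± 0.751 FPKM in green, 12.6 ± 3.67 at color break and 7.85 ± 0.529 in mature fruit. The ratio of VaccDscaff28-augustus-gene-232.26 to VaccDscaff36-augustus-gene-103.16 within a library was 0.421 to 0.685 in green, 56.3 to 95.6 at color break, and 70.8, 119 and 15.5 in mature replicates 1 to 3, so the low mature value is that of replicate 3 alone. No p is given for sums or shares, since their members were chosen with results known, and near-identical copies can share reads, which makes the split between neighbouring copies uncertain.

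**Figure D2:**
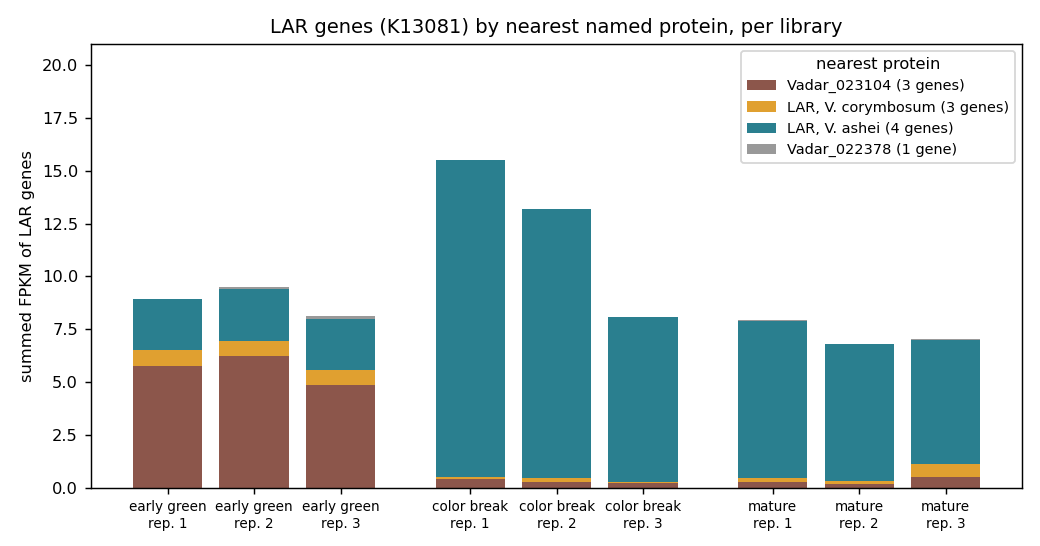
Stacked bars of summed FPKM of the 11 LAR genes in each library, split by the nearest named protein in the deposited table. Bars reach 8.13 to 9.52 FPKM in green, 8.07 to 15.5 at color break and 6.83 to 7.92 in mature libraries, and the Vadar_023104 segment goes from 63.3% of the bar in green fruit to 2.45% at color break.

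The K08695 genes also split. Of the 4 tested, 2 rose, 1 fell and 1 was not called between green and color break. VaccDscaff22-snap-gene-38.62 (scaffold 22, 3834194 to 3849513, minus strand, 13 exons) had the highest mean FPKM of either ortholog over the 9 libraries, with 22.6, 21.5 and 22.5 FPKM in green, 8.49, 10.2 and 8.70 at color break, and 8.27, 8.43 and 7.24 in mature libraries. All 3 stages stood apart, although color break and mature differed by little. It fell at color break (log2 change -1.01 ± 0.09, edgeR adjusted p = 7.5e-06), so close to the fold threshold that it was not called with no expression filter (-0.90) or without green replicate 1 or 3 or color break replicate 1 or 3 (-0.997 to -0.961). Against mature fruit the fall was -1.22 ± 0.09 (adjusted p = 1.9e-06). Its nearest protein is a hypothetical one of Rhododendron williamsianum.

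The K08695 gene VaccDscaff12-processed-gene-15.8 (scaffold 12, 1510709 to 1526473, minus strand, 17 exons) had 3.18, 4.21 and 3.30 FPKM in green, 18.6, 21.9 and 13.1 FPKM at color break, and 11.7, 13.7 and 10.2 FPKM in mature fruit. Every later library was above every green one, and in all 6 later libraries it was above VaccDscaff22-snap-gene-38.62. Color break replicate 3 again lay in the mature range. It rose at color break (2.60 ± 0.21, edgeR adjusted p = 1.0e-05) and stayed higher in mature fruit (1.99 ± 0.20 against green, adjusted p = 4.4e-05). VaccDscaff12-snap-gene-31.28 (scaffold 12, 3147860 to 3157892, 12 exons), which shares its nearest protein and its cinnamoyl-CoA reductase term, had 2.72, 1.65 and 2.90 FPKM in green, 5.26, 7.40 and 4.33 at color break, and 3.37, 4.18 and 2.16 in mature fruit. Its color break libraries were above all others, and it rose at that step (1.495 ± 0.31, edgeR adjusted p = 0.0032) and was not called for mature against green (0.67 ± 0.31, adjusted p = 0.093). With limma on log2(FPKM + 1) the rise at color break was 0.96, under the fold threshold.

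VaccDscaff34-snap-gene-87.39 (scaffold 34, 8659514 to 8699418, 12 exons) had 2.25, 1.64 and 3.85 FPKM in green, 1.49, 1.92 and 1.77 at color break and 1.17, 1.95 and 1.80 in mature fruit, and the stages overlapped. Its log2 change at color break was -0.31 ± 0.31 (edgeR adjusted p = 0.43), and 0.11 without green replicate 3. VaccDscaff12-snap-gene-66.28, with a term for dihydrokaempferol 4-reductase, and VaccDscaff22-snap-gene-88.26 did not pass 0.537 and 0.827 FPKM. None of the 4 tested K08695 genes was called from color break to mature in edgeR, in DESeq2 or in limma, although 3 of them were lower at an unadjusted p under 0.05 in edgeR. In DESeq2 VaccDscaff12-processed-gene-15.8 (-0.60, adjusted p = 0.016) and VaccDscaff12-snap-gene-31.28 (-0.82, adjusted p = 0.049) missed only the fold threshold. The genes on scaffolds 22 and 34 had adjusted p = 0.16 and 0.92. Without color break replicate 3, edgeR gave VaccDscaff12-processed-gene-15.8 -0.79 (adjusted p = 0.017).

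**Figure D3:**
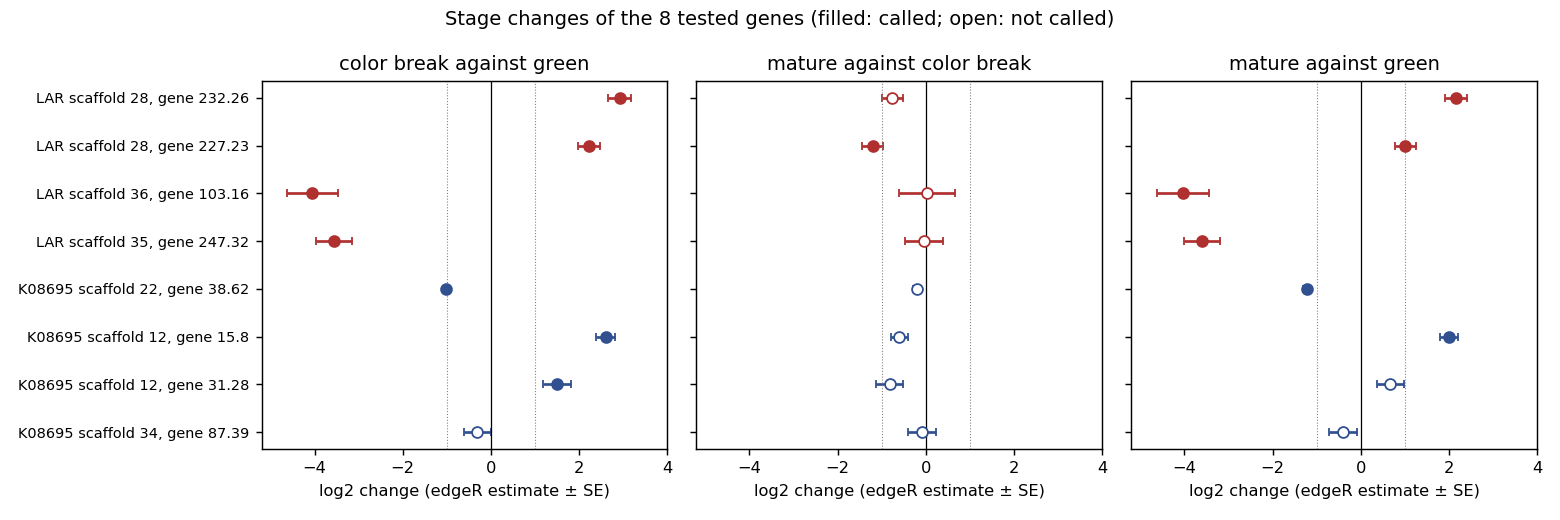
Log2 change ± SE (edgeR, all 9 libraries) of the 8 tested genes in the 3 stage comparisons, LAR in red and K08695 in blue, with filled points for called genes and dotted lines at the fold threshold. The 4 LAR genes part at color break, from 2.92 down to -4.05, and from color break to mature the only called point is VaccDscaff28-augustus-gene-227.23 at -1.21.

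The genes annotated as ANR proper were nearly silent within the ortholog. VaccDscaff24-augustus-gene-201.24, VaccDscaff15-augustus-gene-178.21 and VaccDscaff19-augustus-gene-256.19, nearest to ANR of V. corymbosum or V. ashei, and VaccDscaff133-augustus-gene-0.14 carry both K08695 and the ANR term. Together they had 1.29, 1.13 and 1.26 FPKM in green, 0, 0.166 and 0.111 at color break, and 0.156, 0.245 and 0.345 in mature libraries. Green was above every later library for the sum. VaccDscaff24-augustus-gene-201.24 had the highest level, with 0.469 to 0.597 FPKM in green fruit, and VaccDscaff133-augustus-gene-0.14 had no counts at color break and was at least 9.32-fold lower than in green fruit.

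The bulk of the ANR signal came from a gene outside the ortholog. VaccDscaff787-processed-gene-0.1 (scaffold 787, 16204 to 20425, plus strand, 7 exons) has the ANR term and no KEGG ortholog, and was named after its values were seen. It had 7.58, 10.1 and 9.37 FPKM in green, 4.54, 5.43 and 4.11 at color break, and 2.34, 2.36 and 2.70 in mature libraries. The stages did not overlap and the level stepped down at each. Its log2 change at color break, -0.67 ± 0.145 (edgeR adjusted p = 0.0034), was under the fold threshold, as was that from color break to mature (-0.94 ± 0.15, adjusted p = 0.0083), and it fell from green to mature (-1.61 ± 0.15, adjusted p = 1.2e-05). All 6 genes with the ANR term summed to 10.9 ± 0.908 FPKM in green, 5.10 ± 0.981 at color break and 2.90 ± 0.234 in mature fruit (SD, n = 3).

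Without the expression filter all 21 genes could be fitted in edgeR. In that fit 5 rose and 6 fell at color break, where 17.4% of 93716 genes were called (6.37% higher and 11.0% lower). The median log2 change of the 21 genes was -1.83, also with genes without counts set to their bound, beside -0.15 over all genes. In that fit 4 genes rose and 4 fell between green and mature, where 18.4% of all genes were called (6.88% higher and 11.5% lower), with a median of -0.77 beside -0.16. From color break to mature 1 fell, where 0.828% of all genes were called (0.467% higher and 0.361% lower), and the median was 0.02 beside 0. Of the 21 genes 13 had missed the filter, so these medians rest largely on genes with few counts. In the main fit the median of the 8 tested genes was 0.59 for color break against green and 0.14 for mature against green. Both are opposite in sign to the medians without the filter. From color break to mature it was -0.41.

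The falling genes moved with markers of seed and of green tissue. Seed storage genes, 104 in all, summed to 24835 to 30154 FPKM in green libraries, 1530 to 2304 at color break and 1522 to 1740 in mature fruit, and 62 of the 82 tested fell at color break while 4 rose. Of the 104, 10 were at 0 in every color break and mature library. Over all tested genes, 8.89% rose and 13.9% fell at color break. The 2 genes named AGL11, whose Arabidopsis namesake controls ovule identity, summed to 26.6 to 37.3 FPKM in green, 0.213 to 1.67 at color break and 0.436 to 3.55 in mature fruit, and both fell. Marker genes that passed the filter through green libraries alone had to be lower later, so their counts are no support for a trend. The AGL11 gene VaccDscaff14-augustus-gene-172.28 was of that kind, at 5.38 to 6.74 FPKM in green and at most 0.715 later. Light-harvesting genes, a mark of green tissue, fell in 30 of 36 tested cases and rose in 3, from a summed 511 to 547 FPKM to 264 to 299 at color break and 160 to 180 in mature fruit. Lignin genes chosen to mark stone cells and vessels rose in 5 and fell in 6 of 31 tested cases, with summed levels of 543 to 567, 589 to 638 and 594 to 612 FPKM. Relative to green fruit, the 4 Vadar_023104 genes were at 3.99% to 7.69% at color break and the seed storage genes at 5.64% to 8.49%. The 6 genes with the ANR term were at 39.8% to 56.7% and light-harvesting genes at 50.5% to 57.0%. Most of the level of those 6 genes was that of VaccDscaff787-processed-gene-0.1. The 4 within K08695, all below the filter, summed to 1.23 ± 0.086 FPKM in green fruit and 0.0925 ± 0.085 (SD, n = 3) at color break. The part of these tissues in the LAR and ANR levels was not tested.

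**Figure D4:**
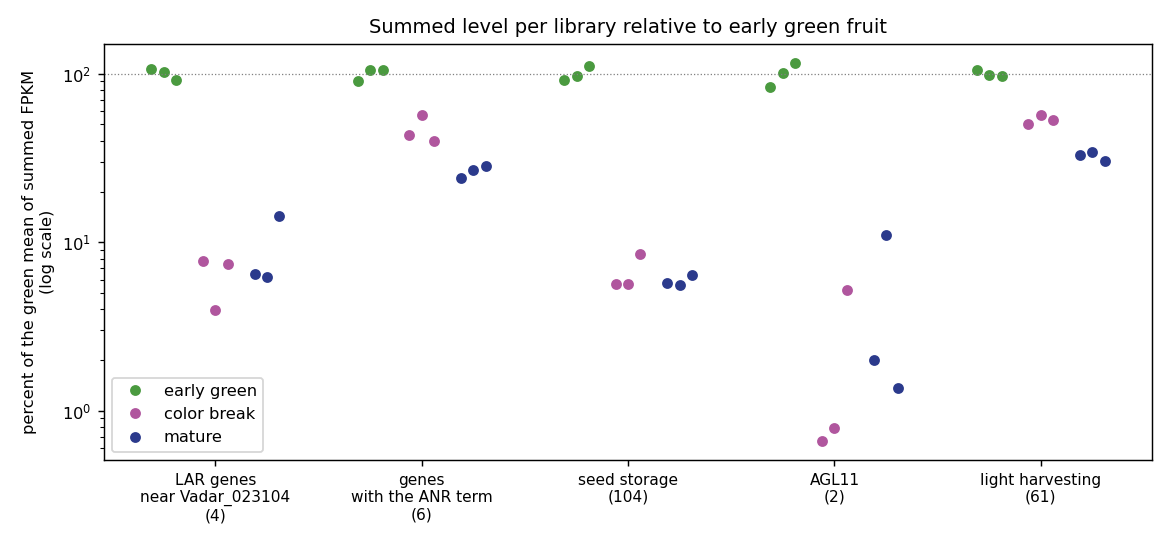
Summed FPKM in each library as a percentage of the green mean, on a log axis, for the 4 LAR genes nearest to Vadar_023104, the 6 genes with the ANR term, and the seed storage, AGL11 and light-harvesting genes. At color break the LAR genes and the seed storage genes lie between 3.99% and 8.49%, and the genes with the ANR term and the light-harvesting genes between 39.8% and 57.0%. Most of the level of the genes with the ANR term is that of VaccDscaff787-processed-gene-0.1.

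Genes of the wider flavonoid pathway mostly rose at color break. Of 56 tested genes in 9 flavonoid families, chosen as chalcone synthase to the anthocyanidin glucosyltransferase K12930, 51 rose and 1 fell at that step, beside 22.8% of all tested genes called in either direction. From color break to mature none was called in edgeR, DESeq2 or limma, although 24 were lower and 1 higher at an unadjusted p under 0.05 in edgeR. Dihydroflavonol reductase (DFR), which makes the substrate of LAR, went from a summed 44.0 ± 1.30 to 458 ± 16.9 FPKM, with all 4 tested genes rising. ANS, which uses that same substrate and makes that of ANR, went from 9.61 ± 0.362 to 1772 ± 132 FPKM, with 3 of 4 tested genes rising. On this per-length scale the summed ANS level was 1.02 to 1.13 times the summed LAR level in green fruit, 105, 139 and 230 times in color break replicates 1 to 3, and 192 to 238 times in mature fruit. Without color break replicate 3 the color break ratios lay below the mature ones, and with it they overlapped. The 5 genes of K12930, which competes with ANR for anthocyanidin, summed to no more than 2.11 FPKM in any library, and the 1 tested, VaccDscaff20-processed-gene-68.12, was lower in mature than in green fruit (log2 change -1.43 ± 0.27, edgeR adjusted p = 0.0014). The gene of each other family with the highest mean over the 9 libraries rose at color break. That of DFR, VaccDscaff42-processed-gene-96.9, went from 19.8 ± 1.68 to 203 ± 3.03 FPKM. That of ANS, VaccDscaff43-augustus-gene-236.29, went from 4.01 ± 0.410 to 912 ± 61.7 FPKM. That of flavonol synthase, which draws on dihydroflavonols before DFR, was VaccDscaff38-augustus-gene-200.23, at 0.973 ± 0.377 and 18.4 ± 5.61 FPKM. The earlier steps were led by VaccDscaff4-processed-gene-104.3 (chalcone synthase, log2 change 9.23), VaccDscaff26-augustus-gene-107.28 (chalcone isomerase, 4.83), VaccDscaff18-processed-gene-15.24 (flavanone 3-hydroxylase, 4.97), VaccDscaff42-augustus-gene-154.36 (flavonoid 3'-hydroxylase, 5.55) and VaccDscaff8-augustus-gene-360.23 (flavonoid 3',5'-hydroxylase, 2.86).

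**Figure D5:**
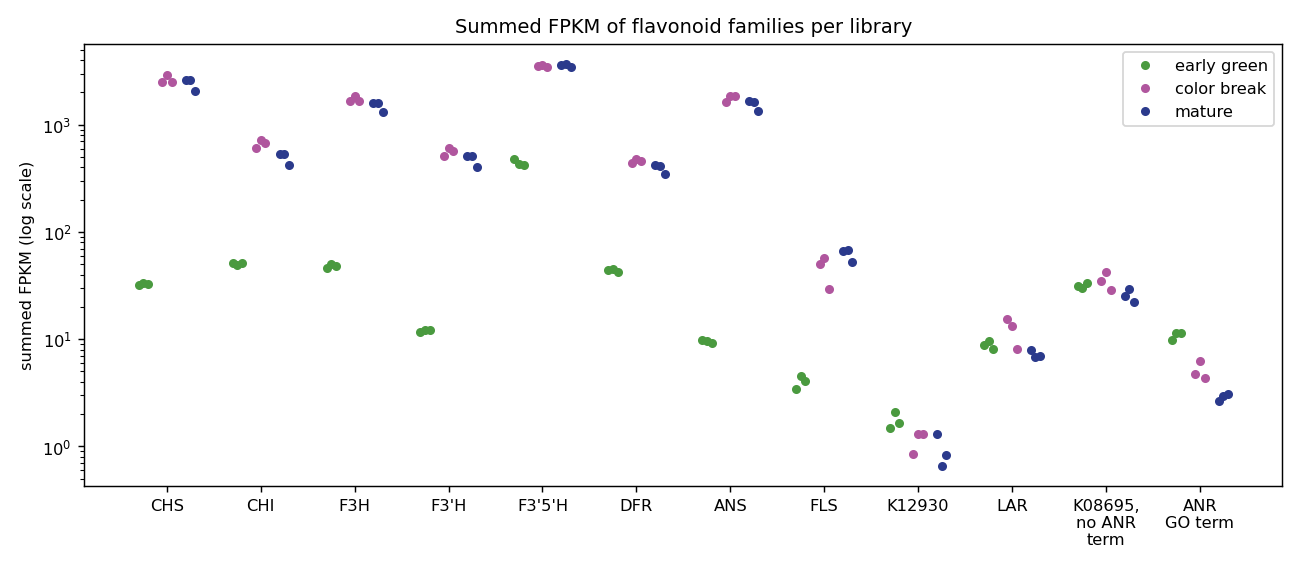
Summed FPKM on a log axis in each library for 9 flavonoid families (K12930 is anthocyanidin 3-O-glucosyltransferase), the LAR genes, the 6 K08695 genes without the ANR term and the 6 genes with it. ANS goes from 9.61 FPKM in green fruit to 1772 at color break, while LAR goes from 8.86 to 12.3 and the genes with the ANR term from 10.9 to 5.10.

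Other genes with the GO term for proanthocyanidin synthesis, 20 tested outside the families above, were mostly transporters or proton pumps by annotation. What part these 20 genes have in tannin synthesis was not tested. Of these, 11 rose and 1, the LAR-term gene on scaffold 4, fell at color break. Over all tested genes 8.89% rose and 13.9% fell at that step, and 9.49% were higher in mature than in green fruit. Transporters of the MATE family, which in Arabidopsis load flavan-3-ol glucosides into the vacuole, rose in 8 of 10 tested cases and summed to 34.8 ± 0.834 FPKM in green, 71.0 ± 4.01 at color break and 64.8 ± 3.37 in mature fruit. That with the highest mean over the 9 libraries, VaccDscaff24-augustus-gene-293.29, went from 14.9 ± 0.319 to 27.7 ± 1.36 FPKM (log2 change 1.17 ± 0.05, edgeR adjusted p = 9.7e-08). Proton pumps of K01535, of which the Arabidopsis member AHA10 acidifies the seed coat vacuole, rose in 2 of 6 cases, and their summed level was 50.7 ± 0.914 FPKM in green, 73.5 ± 5.98 at color break and 54.0 ± 5.43 in mature fruit, where 1 of 6 was called higher than in green. One of them, VaccDscaff4-augustus-gene-407.24, had the highest mean over the 9 libraries of the genes with the term, at 22.4 ± 1.41, 27.4 ± 2.37 and 20.5 ± 1.39 FPKM at the 3 stages, and was not called at color break (log2 change 0.56). A laccase, VaccDscaff603-augustus-gene-0.16, of a family whose Arabidopsis member TT10 oxidises tannin units, had 13.4 ± 1.30, 7.45 ± 0.593 and 6.17 ± 0.317 FPKM at the 3 stages and was not called (log2 change -0.57 ± 0.10 at color break, under the fold threshold).

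The genes most like the leading members in course were sought among 1290 tested genes with a named protein and a mean of at least 5 FPKM, by Pearson's r of log2(FPKM + 1) over the 9 libraries. This is a description, since many genes share such a course: 39 genes had an r above 0.95 with VaccDscaff28-augustus-gene-232.26, 116 with VaccDscaff22-snap-gene-38.62 and 88 with VaccDscaff36-augustus-gene-103.16. Closest to VaccDscaff28-augustus-gene-232.26 were a UDP-glucuronic acid decarboxylase, VaccDscaff15-processed-gene-380.20 (r = 0.992), dehydrin 1, VaccDscaff29-snap-gene-277.43 (r = 0.988), an acid phosphatase, VaccDscaff46-augustus-gene-164.36 (r = 0.979), a prolyl 4-hydroxylase, VaccDscaff53-augustus-gene-11.30 (r = 0.978), and a 2-oxoglutarate-dependent oxygenase, VaccDscaff27-snap-gene-228.56 (r = 0.976). The oxygenase was listed at 0 in green fruit and had 9.15 ± 4.77 FPKM at color break. Closest to VaccDscaff22-snap-gene-38.62 were a G-type lectin receptor kinase, VaccDscaff35-augustus-gene-89.26 (r = 0.998), a SPIRAL1-like protein, a ubiquitin-conjugating enzyme, a glyoxysomal processing protease and a disease resistance protein named RGA1 (r = 0.991 to 0.993). Closest to VaccDscaff36-augustus-gene-103.16 were ribosomal protein eS6, VaccDscaff41-augustus-gene-64.23 (r = 0.994), a chloroplast ribonucleoprotein, an NAD(P)-linked oxidoreductase, a disease resistance protein named RGA4 and the ubiquitin ligase RHB1A (r = 0.989 to 0.993). Pearson's r does not measure the size of a change. From green to color break eS6 went from 48.5 ± 1.76 to 36.4 ± 1.05 FPKM, and RGA4 from 12.6 ± 1.45 to 1.90 ± 0.195 FPKM.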

How the data were processed

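RNA of ground fruit was sequenced on an Illumina platform, and the submitters' processing notes name fastp, HISAT2, StringTie and DESeq2 without versions or settings. The labels' library text speaks of a poplar hybrid, whereas the organism and gene names are those of blueberry. FPKM values and estimated counts per gene were deposited by the authors. In each library 95.0% to 95.7% of the estimated counts lie within 1 of FPKM times length times a constant. These counts went into edgeR 4.0.16 (R 4.3.3), with TMM scaling, robust quasi-likelihood fits, stage as the only term and Benjamini-Hochberg adjustment over the 48073 tested genes. TMM factors were 1.13 to 1.15 in green and 0.927 to 0.945 in later libraries, which enter the log2 changes but not the FPKM means. Alternatives were DESeq2 1.42.0, limma 3.58.1 on log2(FPKM + 1) or log2(FPKM + 0.1), other scalings and filters, a replicate block, left-out libraries and other choices of members. Where no library of a stage held counts, a bound was computed from 3 counts per library, which covers counting error only. The fit was tested on simulated data.

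The members and lists were chosen with earlier results of these data known. All 21 genes of both orthologs are named or counted, and full values are given for those tested. Named besides are the most expressed gene of each pathway family and the 5 genes with the highest Pearson's r to the most expressed LAR gene, the most expressed K08695 gene and the falling LAR gene on scaffold 36. Most expressed means the highest mean FPKM over the 9 libraries, an order that differs between stages. The labels do not say that replicate numbers pair the samples, and the main fit used no pairing. Deviations from stage means of same-numbered libraries correlated at -0.012 to 0.225. Between color break and mature, replicates 2 and 3 (0.113 and 0.225) passed the threshold of 0.1, beside a mean of -0.0629 for different numbers. Marker lists took seed storage genes by the nutrient reservoir term or a description as oleosin, AGL11 by name, and light-harvesting and lignin genes by KEGG ortholog. No sequence is printed, as none was used here.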

Additional observations from a re-analysis of the deposited data

How the results depend on the processing

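The counts of called LAR and K08695 genes were 7 between green and color break, 1 between color break and mature, 6 between green and mature, and 7 in the F test over the stages. They were the same 7, 1, 6 and 7 with a replicate block and with DESeq2. With a mean FPKM of at least 5, which leaves 3 genes to test, they were 3, 0, 3 and 3, and limma on log2(FPKM + 1) called 0 from color break to mature. With no filter 11 were called at color break and 11 in the F test. Genes chosen by protein description (2 tested) gave 2 at color break, 2 in mature against green and 2 in the F test. In both of these comparisons with green, 2 were higher and 0 lower. With 1 library left out, the counts were 6 to 7, 0 to 2, 5 to 6 and 7 to 7.

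The log2 ratio of summed LAR FPKM was 0.47 from green to color break, -0.76 from there to mature and -0.29 over the whole course. Over genes chosen by description it was 1.92 and 1.13 for the comparisons with green, and over those with the GO term, a choice made after the data were seen, -0.088 and -0.771. The sign of the value -0.088 rests on color break replicate 3. Division by TMM factors moved mature against green to -0.01. For summed K08695 the ratios were 0.11, -0.45 and -0.34, which became -3.39, 1.04 and -2.34 by description and -1.10, -0.81 and -1.92 by GO term, and 0.403 and -0.064 against green with TMM factors. With 1 library left out the LAR ratios were 0.26 to 0.70, -0.98 to -0.55 and -0.35 to -0.23, and the K08695 ratios -0.04 to 0.24, -0.58 to -0.30 and -0.45 to -0.25. In the pathway families 3 genes, not 1, fell at color break with library-size-only scaling.

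Of the values of single genes under alternatives, 389 kept direction and call, 17 lost the call and 1 gained it. The 10 that changed sign were all uncalled. VaccDscaff36-augustus-gene-103.16, mature against color break, had -0.074 and -0.001 in limma with pseudocounts of 0.1 and 1, -0.017 with the replicate block, and -1.061 to 0.429 with 1 library left out, the lowest without mature replicate 3. VaccDscaff35-augustus-gene-247.32 in that comparison had -0.330 to 0.386 with 1 library left out. VaccDscaff34-snap-gene-87.39 had -0.554 to 0.106 at color break, -0.239 to 0.101 from there to mature and -0.646 to 0.013 for mature against green. Library-size-only scaling moved the median of all genes at color break from -0.01 to -0.31. The cause of these shifts was not tested.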

Other observations

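Genes named MYBPA, after regulators of tannin synthesis in grape and bilberry, were chosen after their values were seen. Of 5 such genes 1 was tested, VaccDscaff22-augustus-gene-3.22, with 0.755, 0.847 and 1.07 FPKM in green, 0.562, 0.925 and 1.44 at color break, and 0.455, 1.15 and 0.702 in mature libraries. The stages overlapped, and it was not called in any comparison (log2 change 0.41 at color break, edgeR adjusted p = 0.42). The MYBPA2.4 gene VaccDscaff32-snap-gene-54.35 was listed at 0 in 5 of 9 libraries and reached 1.14 FPKM in green replicate 2, and the 3 genes named MYBPA2.1 did not pass 0.234 FPKM in any library.

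Mature replicate 3 had the highest summed level of the V. corymbosum LAR genes among the later libraries (0.623 FPKM, against 0.0487 to 0.206 in the other 5), and also the highest level of the 4 Vadar_023104 genes there, at 14.2% of the green mean. In AGL11 it was mature replicate 2 that stood highest, at 11.0% of the green mean.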
